A study of Mus musculus with 4 samples.

Results

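A set of 10 transcription factor genes that act in trophoblast or in surface ectoderm was followed by RNA sequencing: Tcfap2a, Tcfap2c, Gata2, Gata3, Dlx3, Ets2, Tead4, Elf5, Esx1 and Gcm1. These 10 genes were taken by name from the 37620 genes counted. All 10 were found in the count table, and 8 of them were among the 15462 genes that the authors kept after removing genes with low counts. Elf5 and Gcm1 were not kept.

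A total of 4 cultures of mouse R1 embryonic stem cells (ESCs), a line of strain 129/Sv, were sequenced, with 1 library each. WT serum/LIF and Cripto KO serum/LIF were ESCs grown in serum with leukaemia inhibitory factor, the medium of naive ESCs. WT F/A and Cripto KO F/A were ESCs seeded sparsely in N2B27, a serum-free medium, with 20 ng/ml Activin A and bFGF for 6 days, a treatment that turns ESCs into epiblast stem cells (EpiSCs). The Cripto KO cells lack Cripto (Tdgf1), a membrane protein that acts as co-receptor for Nodal. The study worked with more than 1 Cripto KO clone, and which of them was sequenced is not given in the sources used here. A difference between 2 libraries therefore carries the culture, the clone and the library with it, and no difference below has a replicate check. Since RNA was taken from whole cultures, fewer cells that express a gene and less RNA per cell cannot be told apart.

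In mouse development the trophectoderm is the outer layer of the blastocyst, set apart by Tead4 together with its co-activator Yap1 and then by Cdx2, Gata3 and Tcfap2c. Trophoblast stem cells and the placenta that they form further use Ets2, Elf5, Esx1 and Gcm1. Surface ectoderm, the embryonic layer that gives epidermis, shares several of these factors, among them Tcfap2a, Tcfap2c, Gata2, Gata3 and Dlx3, and it forms where BMP signalling is high. A change in one of the shared genes does not say which of the tissues it belongs to, so genes that mark each tissue were described beside them.

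Library totals ran from 15230856 to 17315442 counts. A count of 3 in a library was taken as the limit of detection, which is 0.173 to 0.197 CPM, the count scaled to a common library total. In the Cripto KO F/A library 0.0160% of the genes with a count had an odd count, against 53.1% to 53.6% in the other libraries, so its counts were halved for every counting interval and its limit was set at 6 counts, or 0.381 CPM. Tdgf1 itself had 18714 counts in WT serum/LIF, 945 in Cripto KO serum/LIF, 1572 in WT F/A and 86 in Cripto KO F/A, so both knockout libraries lay far below their WT libraries. In F/A the list of naive ESC genes was lower in 7 of 7 kept genes in WT and in 7 of 7 in Cripto KO, and Pou5f1, a core pluripotency gene, went from 26857 to 1810 counts in WT and from 21995 to 1216 in Cripto KO. The EpiSC list was higher in 5 of 7 kept genes in each genotype, and lower in 0 in WT and in 1 in Cripto KO. Between the F/A libraries 4 of the 7 were lower in Cripto KO than in WT, led by Fgf5, Cer1 and Otx2 (log2 ratios of -2.54, -2.50 and -1.84).

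A gene was called higher or lower where its normalized counts differed at least 2-fold and the 95% counting interval of the ratio of its raw counts left out 1. From serum/LIF to F/A, WT cells had 3 of the 8 kept regulators higher (Gata3, Dlx3 and Ets2) and 3 lower (Tcfap2c, Gata2 and Esx1). Of all kept genes 21.7% were called higher and 20.9% lower. Elf5 and Gcm1 were not kept and could not be called. Cripto KO cells had 4 higher (Gata3, Dlx3, Ets2 and Tcfap2a) and 1 lower (Tcfap2c), where 18.8% of all kept genes were higher and 18.9% lower. In F/A, Cripto KO exceeded WT for 3 of the 8 (Gata2, Tcfap2a and Dlx3) and was lower for 0. Of all kept genes 2.93% were higher and 4.08% lower there. In serum/LIF, Cripto KO was higher for 0 and lower for 1 (Esx1), where 1.36% of all kept genes were higher and 1.97% lower. The 4 comparisons share their libraries in pairs, so their counts do not bear on each other independently. The median log2 change of the 8 kept regulators was 0.14 in the WT transition, 0.77 in the Cripto KO transition, 0.61 between the genotypes in F/A and -0.30 in serum/LIF, and that of all kept genes was -0.07, -0.07, 0 and 0.

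**Figure D1:**
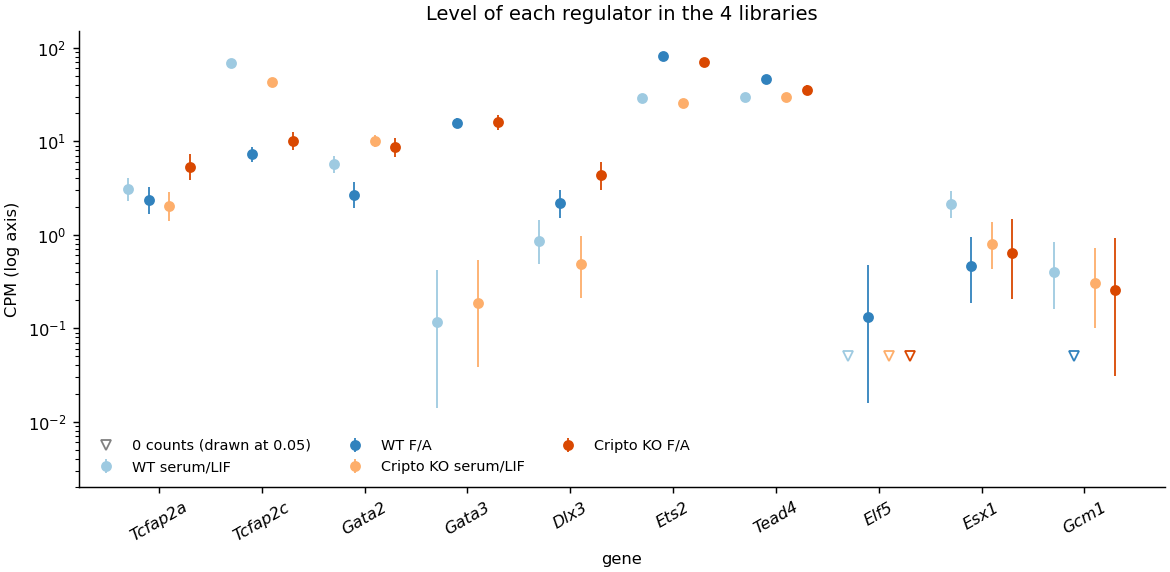
Level of each regulator in CPM (log axis) in the 4 libraries. Points are single libraries, bars are exact 95% Poisson intervals of the count, and open triangles drawn at 0.05 mark libraries with 0 counts. Ets2 and Tead4 lay above 25 CPM in all 4 libraries, Gata3 was near 0 in both serum/LIF libraries and near 16 in both F/A libraries, and Elf5 and Gcm1 stayed below 0.5.

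The AP-2 factors bind GC-rich palindromes and act early in trophectoderm and in the non-neural ectoderm. Tcfap2c, which is needed for trophoblast and is also expressed in germ cells and naive ESCs, had 1191 counts in WT serum/LIF, 705 in Cripto KO serum/LIF, 110 in WT F/A and 160 in Cripto KO F/A. Both serum/LIF libraries were high and both F/A libraries low. The normalized level was 10.2-fold lower in F/A in WT (counting interval of the raw ratio 7.83 to 11.7) and 4.47-fold lower in Cripto KO (3.38 to 5.44). Between the genotypes it was 0.628 times the WT level in serum/LIF (0.573 to 0.692) and 1.44 times in F/A (1.04 to 1.89), both short of 2-fold although both intervals left out 1.

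Tcfap2a, the AP-2 factor of surface ectoderm and neural crest, had 53 counts in WT serum/LIF, 33 in Cripto KO serum/LIF, 36 in WT F/A and 84 in Cripto KO F/A. Cripto KO F/A was the highest library and the other 3 lay close together, with intervals that overlapped. The level in Cripto KO F/A was 2.32 times that in WT F/A (1.41 to 3.63) and 2.60 times that in Cripto KO serum/LIF (1.63 to 4.28). In WT the change into F/A was to 0.830 times (0.491 to 1.20), an interval that holds 1. Tcfap2a shares exon sequence with Gm16989, a long non-coding RNA on the opposite strand. Whether reads were counted by strand is not given in the sources used here. Reads in the shared stretch may therefore be counted for either gene or for none.

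Per kilobase of median transcript length, which allows genes to be compared, Tcfap2c made up 95.2% of the summed level of the 5 AP-2 genes in WT serum/LIF and 94.6% in Cripto KO serum/LIF. Its share was 68.6% in WT F/A and 63.7% in Cripto KO F/A, while that of Tcfap2a was 21.6% and 32.1%. The family sum itself fell from 26.3 to 3.83 CPM per kilobase in WT and from 16.7 to 5.80 in Cripto KO. Thus the larger share of Tcfap2a in F/A came with a far lower level of Tcfap2c in both genotypes, and with a raised level of Tcfap2a itself in Cripto KO. Tcfap2b had 0 counts in all 4 libraries, Tcfap2d at most 1, and Tcfap2e, 5 to 12.

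Among the GATA factors, which bind the core letters GATA, Gata3 and Gata2 act in trophoblast and Gata2 also at the base of the blood lineages. Gata3 had 2 counts in WT serum/LIF, 3 in Cripto KO serum/LIF, 238 in WT F/A and 252 in Cripto KO F/A. It was at the limit of detection in both serum/LIF libraries and well above it in both F/A libraries. The ratio of normalized counts was 193 in WT with a counting interval of 37.0 to 1124, and 84.1 in Cripto KO with an interval of 29.0 to 426, so the 2 intervals overlapped widely. In F/A, Cripto KO was at 1.04 times the WT level (0.819 to 1.277), a log2 ratio of 0.06 that was 0.03 to 0.06 under the other normalizations and -0.07 after a running median over transcript length was subtracted. No ratio is given in serum/LIF, where both libraries were at the limit. Gata3 overlaps Gm13256 on the opposite strand and 9230102O04Rik on its own strand, and reads in the shared stretches may be counted for either gene or for none.

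Gata2 had 98 counts in WT serum/LIF, 164 in Cripto KO serum/LIF, 41 in WT F/A and 136 in Cripto KO F/A. WT F/A was the lowest library, and both Cripto KO libraries were above both WT libraries. In F/A the level in Cripto KO was 3.21 times that in WT (2.15 to 4.85), the largest ratio between the genotypes among the 8 kept regulators. In serum/LIF it was 1.92 times (1.38 to 2.31), short of 2-fold. The WT transition lowered Gata2 2.10-fold (1.45 to 3.11), and in Cripto KO the level in F/A was 0.795 times that in serum/LIF (0.636 to 1.14), an interval that holds 1.

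The gene bodies lie, in NCBIM37, at chr2:9778705-9811661 on the minus strand for Gata3 and at chr6:88143885-88157024 on the plus strand for Gata2. The 250 bases before the RefSeq starts of these genes (GRCm38.p6) are shown for the 2 starts that held the most matches to the 6 motifs searched, a choice made after the matches were seen. Capitals mark the matches, read on both strands: AP-2 (GCCNNNGGC), a BMP-responsive Smad motif (GGCGCC), ETS (CCGGAA) and TEAD (GGAATG). The other motifs searched, AGATAA for the GATA family and ATGCGGG for Gcm1, had no match in either window.
Gata3, chr2:9878601-9878850, minus strand: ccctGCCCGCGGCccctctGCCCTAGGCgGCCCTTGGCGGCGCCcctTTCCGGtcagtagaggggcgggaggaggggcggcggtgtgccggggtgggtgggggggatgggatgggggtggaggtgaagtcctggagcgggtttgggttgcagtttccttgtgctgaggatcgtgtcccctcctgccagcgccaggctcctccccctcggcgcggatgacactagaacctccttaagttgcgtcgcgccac
Gata2, second start, chr6:88198414-88198663, plus strand: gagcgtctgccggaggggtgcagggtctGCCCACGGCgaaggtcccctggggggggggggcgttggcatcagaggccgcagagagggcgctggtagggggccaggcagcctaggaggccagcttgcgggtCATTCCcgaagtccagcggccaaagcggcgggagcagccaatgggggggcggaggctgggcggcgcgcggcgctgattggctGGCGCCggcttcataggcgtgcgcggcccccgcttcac

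In the Gata3 window the AP-2 letters occurred 3 times, from -246 to -238, -231 to -223 and -221 to -213 relative to the start, followed by the Smad letters at -212 to -207 and, on the other strand, the ETS letters at -203 to -198. The Gata2 window held AP-2 letters at -222 to -214, TEAD letters on the other strand at -120 to -115 and Smad letters at -38 to -33. These windows are rich in G and C, at 70.0% and 74.0% against a median of 52.4% over all 32807 promoters of the table, where GC-rich motifs match more often. Of all promoters 13.7% held the AP-2 letters, 9.59% the Smad letters, 12.6% the TEAD letters, 12.0% the ETS letters, 9.995% the GATA letters and 1.19% the GCM letters. Of the 7 regulators with a promoter in the table, 2 held AP-2 letters, 2 Smad, 2 TEAD (Gata2 and Elf5), 1 ETS and 0 GATA or GCM. A regulator was counted if any of its starts matched, and Gata2, Elf5 and Tcfap2a have more than 1. The shares over all promoters are per start, so the 2 are not directly comparable. Some of these motifs can overlap each other, and a match is a match of letters only. Tcfap2c, Dlx3 and Tead4 were the regulators without a promoter in the table.

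Within the GATA family the largest shares of the level per kilobase were those of Gata1, Gata2 and Gata4 in serum/LIF and those of Gata3, Gata4 and Gata6 in F/A. The family sum was 6.92 CPM per kilobase in WT serum/LIF, 7.20 in Cripto KO serum/LIF, 62.8 in WT F/A and 89.3 in Cripto KO F/A. Gata4 alone was 45.1% of the sum in WT F/A and 50.04% in Cripto KO F/A. The share of Gata3 depended on the gene length used, because short annotated transcripts give Gata3 a median length of 674 bases where all its exons together span 3978. It was 36.9% in WT F/A and 26.6% in Cripto KO F/A by the median transcript, and 13.7% and 8.72% by all exons, a length chosen after the data were seen. Gata4 and Gata6, factors of endoderm and cardiac mesoderm, were 1.61 and 1.65 times higher in Cripto KO than in WT in F/A, both short of 2-fold. Gata5, of the same group, had 12 counts in WT F/A and 84 in Cripto KO F/A, a ratio of 6.75 (3.50 to 14.1), and was the only called gene among the 12 kept of 22 family members of the regulators in that comparison.

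**Figure D2:**
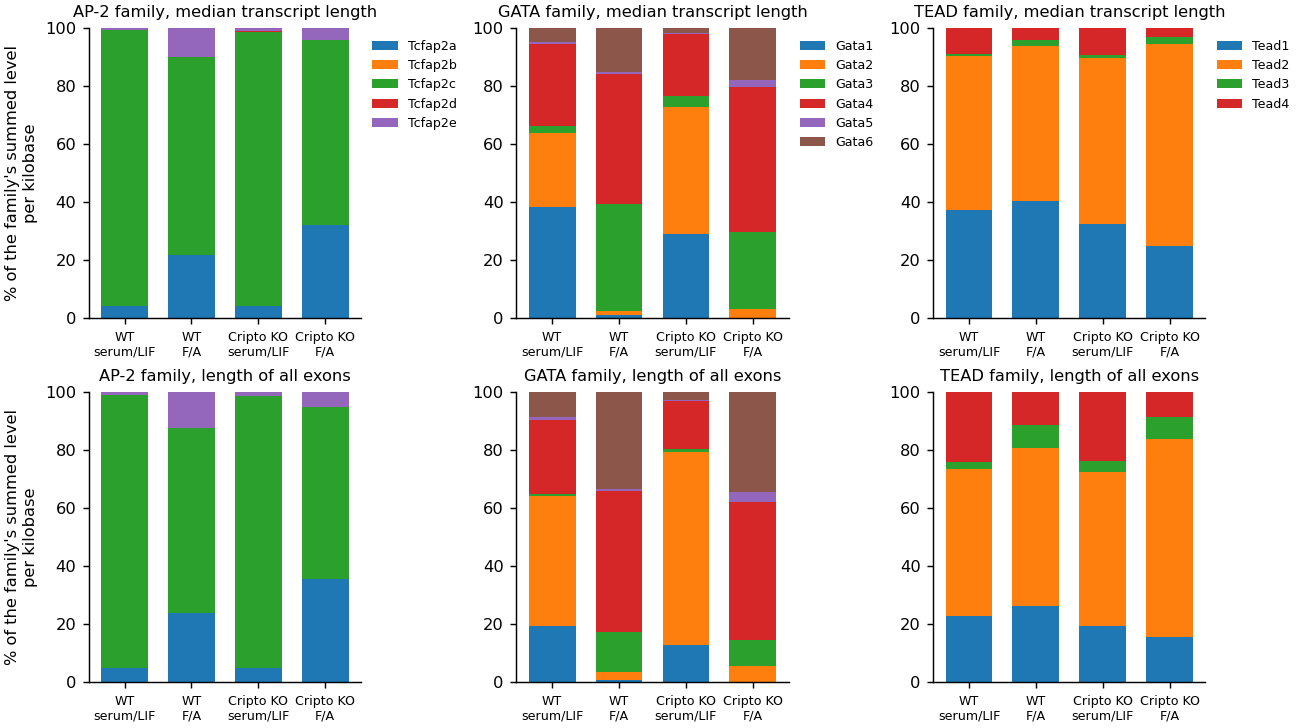
Share of each gene in the summed level per kilobase of its family (stacked bars, % on the vertical axis) in the 4 libraries for the AP-2, GATA and TEAD families, by the median transcript length (top row) and by the length of all exons (bottom row). Tcfap2c led the AP-2 family in every library, Gata4 led the GATA family in both F/A libraries under both lengths, and Tead2 led the TEAD family in every library.

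Dlx3, a homeobox factor of placental labyrinth and epidermis, was scarce. It had 15 counts in WT serum/LIF, 8 in Cripto KO serum/LIF, 33 in WT F/A and 68 in Cripto KO F/A. Both F/A libraries were above both serum/LIF libraries, and Cripto KO F/A was the highest. F/A raised the level 2.88-fold in WT (1.32 to 4.96) and 9.32-fold in Cripto KO (3.99 to 22.0). In F/A the level in Cripto KO was 2.09 times that in WT (1.20 to 3.32), which sits at the threshold: the log2 ratio ran from 0.97 to 1.11 over the alternatives, and the call was lost with scaling by total counts and with 5 added to every value. Per kilobase of median transcript Dlx3 held 50.4% of the summed level of the 6 Dlx genes in WT F/A and 44.7% in Cripto KO F/A. By all exons its share was 71.7% and 65.5%, so the share depended on the gene length used. In these F/A libraries Dlx4 had 7 and 16 counts, and Dlx1, Dlx2, Dlx5 and Dlx6 had at most 8.

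Per kilobase, Ets2 had the highest level of the 10 regulators in both F/A libraries, at 87.9 CPM in WT and 76.5 in Cripto KO by the median transcript and 17.3 and 15.1 by all exons. Ets2, an ETS factor needed for trophoblast stem cells, had 506 counts in WT serum/LIF, 413 in Cripto KO serum/LIF, 1242 in WT F/A and 1118 in Cripto KO F/A. Both F/A libraries were high, and the rise was 2.64-fold in WT (2.51 to 3.10) and 2.63-fold in Cripto KO (2.46 to 3.18). Cripto KO was at 0.889 times WT in F/A (0.787 to 0.963) and at 0.890 times in serum/LIF (0.761 to 0.992), small deficits whose intervals left out 1.

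Tead4, the partner of Yap1 in the first choice between trophectoderm and inner cell mass, had 520 counts in WT serum/LIF, 482 in Cripto KO serum/LIF, 705 in WT F/A and 562 in Cripto KO F/A. It had the flattest profile of the 8 kept regulators, with a highest level 1.56 times its lowest in CPM. F/A raised it 1.46-fold in WT (1.37 to 1.73) and 1.11-fold in Cripto KO (1.04 to 1.40), and Cripto KO F/A was at 0.772 times WT F/A (0.669 to 0.887), all short of 2-fold. Per kilobase, Tead4 was 3.93% of the TEAD family in WT F/A and 3.11% in Cripto KO F/A by the median transcript, and 11.3% and 8.56% by all exons. Tead1 and Tead2 held most of the rest, Tead1 at 0.618 times (0.569 to 0.638) and Tead2 at 1.29 times (1.21 to 1.33) the WT level in Cripto KO F/A. Yap1 and Wwtr1, the co-activators that TEAD factors need, were at 0.945 and 0.962 times the WT level there.

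Esx1, Elf5 and Gcm1 belong to trophoblast stem cells and the labyrinth, and were low or not detected. Esx1, an X-linked homeobox gene of the placenta, had 37 counts in WT serum/LIF, 13 in Cripto KO serum/LIF, 7 in WT F/A and 10 in Cripto KO F/A. WT serum/LIF stood above the other 3 libraries, which had overlapping intervals. The level was 2.41-fold lower in Cripto KO serum/LIF (1.39 to 5.48) and 4.10-fold lower in WT F/A (2.05 to 12.4) than in WT serum/LIF, while Cripto KO F/A was at 1.63 times WT F/A (0.346 to 5.06). Elf5, which keeps trophoblast stem cells self-renewing, had 2 counts in WT F/A and 0 in each of the other 3 libraries, so its level was at or under the limit of detection everywhere. Gcm1, which drives the syncytiotrophoblast, had 7 counts in WT serum/LIF, 5 in Cripto KO serum/LIF, 0 in WT F/A and 4 in Cripto KO F/A, the last under the limit of 6 there. With the limit of 3 counts taken for the 0, the WT level was at least 2.05-fold lower in F/A, a bound that leaves out the counting error of the 7, with which the interval begins at 1.27-fold. No ratio is given between the F/A libraries.

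**Figure D3:**
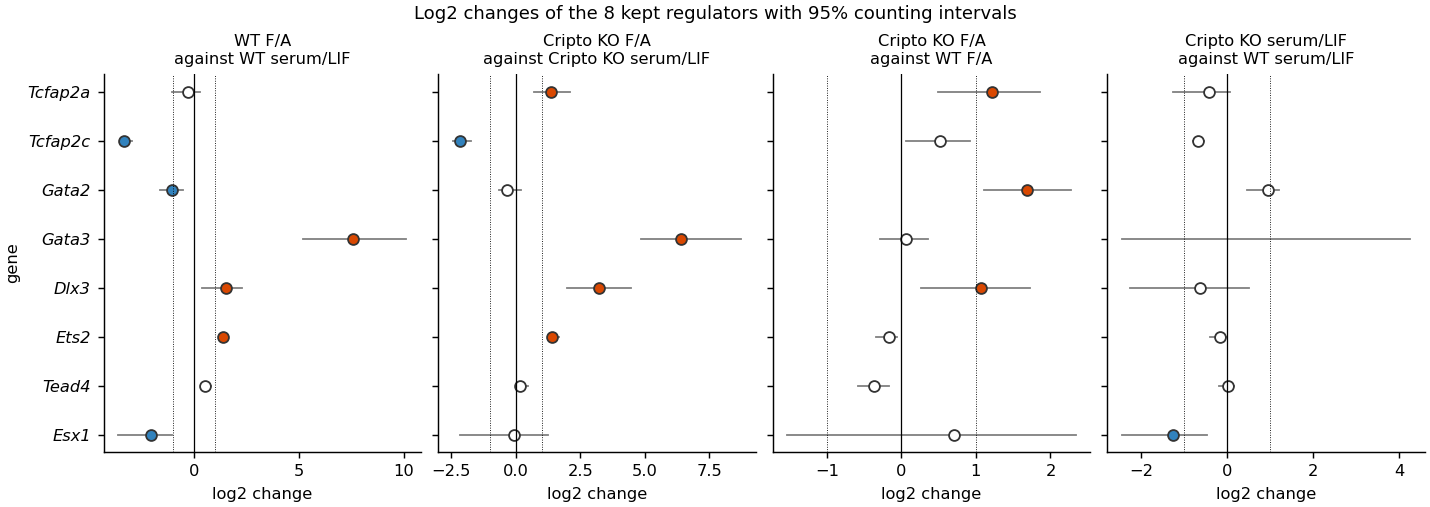
Log2 change of the 8 kept regulators in each of the 4 comparisons. Points are ratios of normalized counts (orange called higher, blue called lower, white not called), bars are 95% counting intervals of the ratio of raw counts, dotted lines mark 2-fold, each panel has its own horizontal scale, and no point is drawn for Gata3 in serum/LIF, where both libraries were at the limit of detection. Gata3 had the largest rise in both transitions, and between the genotypes in F/A only Tcfap2a, Gata2 and Dlx3 passed 2-fold.

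The signed log2 change into F/A was higher in Cripto KO than in WT by 1.70 for Dlx3 and 1.65 for Tcfap2a. It was also higher by 1.98 for Esx1, 1.19 for Tcfap2c and 0.74 for Gata2, whose falls were smaller in Cripto KO. Their changes were -2.04, -3.36 and -1.07 in WT and -0.06, -2.16 and -0.33 in Cripto KO. The signed change was lower by 1.20 for Gata3 and by 0.39 for Tead4, and it was the same within 0.01 for Ets2. The figure for Gata3 rests on the 2 and 3 counts of the serum/LIF libraries. That for Esx1 came mostly from serum/LIF, where the Cripto KO level was called lower, while the interval of the ratio in F/A holds 1. In all, 5 of the 8 kept regulators differed by 1 or more between the transitions, where 17.1% of all kept genes did. Gata3 dropped out of these 5 with total-count scaling, TMM factors or DESeq2 size factors, where its change was smaller by 0.63 to 0.64 in Cripto KO, and with 5 added to every value, which leaves 4. For Tcfap2a, Tcfap2c and Dlx3 the log2 ratio of Cripto KO to WT was below 0 in serum/LIF (-0.43, -0.67 and -0.63) and above 0 in F/A (1.22, 0.52 and 1.07), although the serum/LIF intervals of Tcfap2a and Dlx3 hold 1. Among the 8, Tcfap2a alone had changes into F/A that pointed opposite ways.

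The genes whose values over the 4 libraries lay nearest to each regulator were sought among 12789 genes with at least 50 counts on average, by Euclidean distance of centred log2 normalized counts. With only 4 libraries many genes share any profile. Gata3 was followed most closely by Pappa, Tgfb2 and Pkdcc, which rose from at most 64 counts in serum/LIF to at least 563 in F/A in both genotypes. Tcfap2a was followed by Fzd10, Tmem205 and Tspan4, and Dlx3 by Lmod1, Nab2 and Fam176b, all highest in Cripto KO F/A. Gata2 was followed by Adamts2, Tmem37 and Tal1, lowest in WT F/A as Gata2 was. The nearest genes of Tcfap2c were Aass, Akr1b8 and Smtnl2, those of Ets2 Nck2, Arhgap1 and Psme1, those of Tead4 Lmbrd1, Ppp6r2 and Rock1, and those of Esx1 Serp2, 1700021C14Rik and Pxmp2.

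The other trophoblast genes divided in F/A. Of 18 further regulators and stem cell genes of trophoblast, 16 were kept, of which 5 were higher and 2 lower in Cripto KO than in WT, with a median log2 ratio of -0.07 against 0 for all genes. Hand1, which drives giant cells and also marks lateral mesoderm, had 1 and 2 counts in WT and Cripto KO serum/LIF, 196 in WT F/A and 1730 in Cripto KO F/A. Cdx2, the trophectoderm master regulator that also acts in posterior mesoderm, had 2 and 1 counts in serum/LIF, 104 in WT F/A and 674 in Cripto KO F/A. Both were far higher in Cripto KO F/A than in any other library, at 8.88 times (7.31 to 10.02) and 6.37 times (5.02 to 7.89) the WT level. Msx2 was at 4.18 times (3.36 to 5.15), and Id2 and Plac1 were also higher. Eomes, needed for trophoblast stem cells and for mesendoderm, went the other way, from 1963 counts in WT F/A to 422 in Cripto KO F/A, or 0.205 times (0.1796 to 0.240), and Ascl2 was the other gene lower. Hand1 and Cdx2 were picked out by the study from its RNA sequencing of F/A cells, the data described here. With Msx2 they were then measured by quantitative PCR. The direction of these genes here is therefore not independent evidence. At the protein level the study also reported more Cdx2-positive cells in Cripto KO F/A than in WT F/A. It found the trophoblast marker Gata3 in Cdx2-positive cells. The Gata3 RNA of whole cultures described here, at 1.04 times the WT level, is a different measure.

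Markers of differentiated trophoblast were mostly not seen. Of 16 such genes 13 were matched and 5 kept, and 0 were called higher or lower between the genotypes in F/A. Cited1, a transcriptional co-regulator of the placenta, sat at the threshold, with 258 counts in WT F/A and 526 in Cripto KO F/A, or 1.96 times (1.66 to 2.35), and was called higher with the TMM and DESeq2 factors. The placental lactogens and relatives Prl3d1, Prl3b1 and Prl7a2, the labyrinth protease Ctsq and the spongiotrophoblast marker Tpbpa had 0 counts in all 4 libraries. The simple-epithelium keratins Krt8 and Krt18, expressed in trophectoderm and in many other epithelia, rose from at most 148 counts in serum/LIF to 19493 and 14581 in WT F/A and 21894 and 16184 in Cripto KO F/A, with nearly equal levels in both genotypes. The summed level of the list therefore went from 21.7 to 2305 CPM in WT and from 14.4 to 2504 in Cripto KO, most of it in these keratins.

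The surface ectoderm list was split as well. Of 17 genes 14 were kept, with 2 higher, 2 lower and a median log2 ratio of -0.39 in Cripto KO F/A against WT F/A. Wnt6, a ligand of surface ectoderm, had 314 counts in WT F/A and 1226 in Cripto KO F/A, a ratio of 3.80 (3.29 to 4.34), and Krt15 had 18 and 64, a ratio of 3.53 (1.87 to 6.51). Grhl3, an epidermal factor, had 187 and 90 counts, a ratio of 0.492 (0.329 to 0.648). Cdh1, the epithelial cadherin, had 16176 and 8942 counts, at 0.474 times WT after normalization but at 0.535 times (0.517 to 0.553) by library totals, which is short of 2-fold. Krt5, Krt14 and Trp63, which define stratified epidermis and its progenitors, had 2, 3 and 7 counts in WT F/A and 4, 6 and 10 in Cripto KO F/A. The summed level of the list was lower in Cripto KO F/A (1923 CPM) than in WT F/A (2845). Cdh1 alone made up a large part of both sums and of the difference between them.

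BMP target genes were higher in Cripto KO F/A as a list. Of 9 genes, all kept, 7 were higher than in WT F/A and 0 lower, with a median log2 ratio of 1.31 against 0 for all genes. Msx1 went from 180 to 944 counts, 5.11 times WT (4.27 to 6.06), and Id2 from 403 to 1676, or 4.11 times (3.57 to 4.54). Id1, Id3, Smad6, Bambi and Msx2 were the others called, while Id4 and Smad7 were at 1.73 and 1.22 times. In serum/LIF 2 of the 9 were higher in Cripto KO, among them Id2, with 291 counts in WT and 921 in Cripto KO.

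Markers of further cell types that could be present also differed between the F/A libraries, and their part in the differences of Gata2, Tcfap2a and Dlx3 was not tested. Lateral and extraembryonic mesoderm genes were higher in Cripto KO F/A for 4 of 9 kept and lower for 0, with Hand2 at 6.96 times (5.44 to 9.04), Foxf1a at 4.11 times (2.89 to 6.12) and the ligand Bmp4 at 2.08 times by normalized counts and 1.98 times by library totals. Their summed level was 228 CPM in WT F/A and 408 in Cripto KO F/A, and 32.8 to 36.8 in serum/LIF, with 1 gene of 10 at or under the limit of detection in each F/A library. Neural crest genes were higher for 3 of 6 kept, with Snai2 at 4.49 times (3.19 to 6.43) and Twist1 at 2.75 times (2.41 to 3.16), and 1, Foxd3, was lower. Sox10, which defines migrating neural crest, had 6 counts in each F/A library. The neural crest sum was 40.8 in WT F/A and 99.996 in Cripto KO F/A, and 66.5 and 97.7 in WT and Cripto KO serum/LIF.

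Haemato-endothelial genes were described because Gata2 also acts in blood progenitors, and they were mixed. Of 8 kept, 3 were higher in Cripto KO F/A (Pecam1 at 5.97 times, 2.65 to 14.03, Lmo2 at 2.39 times, 1.84 to 3.05, and Tal1) and 2 lower (Hhex and Runx1, at 0.352 and 0.464 times). Their sum was 94.8 CPM in WT F/A and 97.3 in Cripto KO F/A, and 244 and 192 in WT and Cripto KO serum/LIF. Pecam1 was also used by the study as a marker of epiblast. The embryonic globins Hba-x, Hbb-bh1 and Hbb-y had 0 counts in all 4 libraries. Of primitive endoderm genes, 0 of 8 were higher and 1, Sox17, was lower at 0.385 times (0.313 to 0.457), with sums of 364 and 414 CPM in WT and Cripto KO F/A. Of fibroblast genes, which mark feeder and stromal cells, 2 of 5 were higher, led by Col1a1 at 2.90 times (2.56 to 3.22), and the sums were 67.8 and 151. Of naive ESC genes 0 of 7 were called between the F/A libraries, and of 3 general pluripotency genes 1, Nanog, was lower at 0.482 times (0.352 to 0.622). Several genes stand in more than 1 list, among them Hand1, Msx2, Id2, Gata4 and Gata6.

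**Figure D4:**
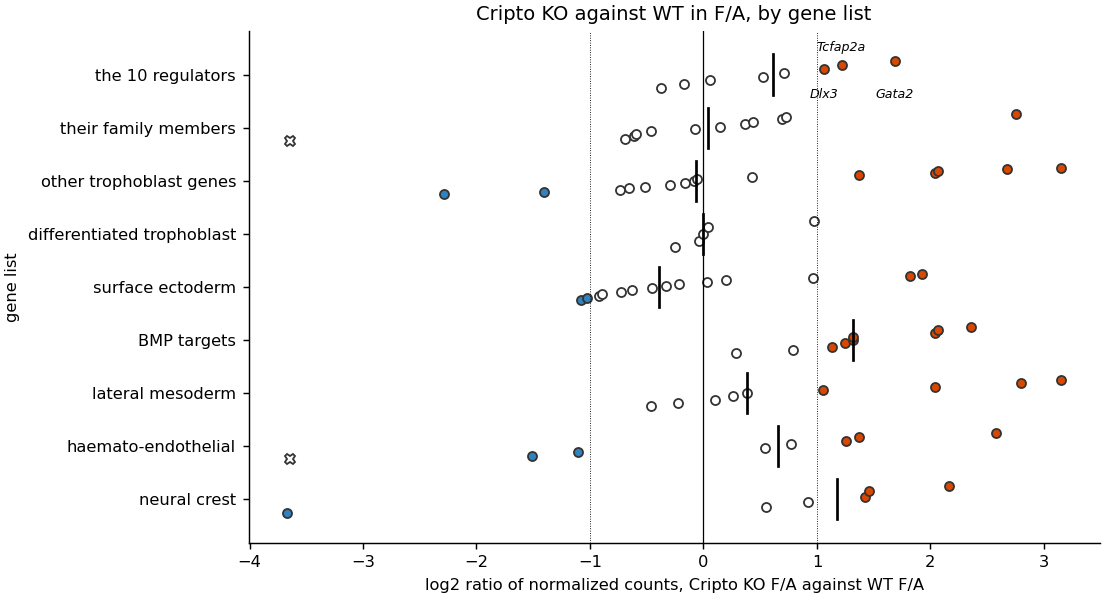
Log2 ratio of normalized counts in Cripto KO F/A against WT F/A for each kept gene of the 10 regulators and 8 further lists (rows). Circles are genes (orange called higher, blue called lower, white not called), crosses are genes with 0 counts in Cripto KO F/A, genes at or under the limit in both libraries are not drawn, black bars are medians of the kept genes and dotted lines mark 2-fold. The regulators had a median of 0.61 and the BMP targets one of 1.31, with all 9 BMP targets to the right of 0.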

How the data were processed

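Total RNA from each of the 4 cultures was sequenced on the Illumina platform. Per the labels and the submitters' processing notes, the authors aligned reads to mm9/NCBIM37 with TopHat2 2.0.13 and counted them per gene with HTSeq 0.6.1p1, and deposited raw counts of 37620 genes. They also deposited a table of 15462 genes, whose values are quantile-normalized counts (a signal, not whole numbers). The strand setting of the counting is not given in the sources used here. They normalized the whole count table and filtered it afterwards, and the same normalization run here on all raw counts gave the deposited signal.

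The 10 members and 13 gene lists were chosen with earlier results of these data known. Gene names came from an Ensembl 65 annotation of NCBIM37, which named 98.9% of the counted genes. All 10 members, the gene lists' called genes with at least 50 counts in the higher library (up to 3 in each direction) and the 3 genes nearest to each member were named by rule. Others were named after their values were seen. The lists held paralogs, other trophoblast genes, differentiated trophoblast, surface ectoderm, BMP targets, neural crest, lateral and extraembryonic mesoderm, haemato-endothelial cells, primitive endoderm, fibroblasts, naive ESCs, EpiSCs and general pluripotency.

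With 1 library per condition no test was made, and no p-value is given. Ratios are those of the deposited normalized counts, with 0 replaced by 0.5. Intervals are 95% Clopper-Pearson intervals of the ratio of raw counts scaled by library totals. They cover counting error only. Single counts carry exact Poisson intervals. Genes were compared with each other only per kilobase of median transcript length, or, as an alternative, of all exons. The interval and call were tested on simulated data that held counting error only. That test does not bear on the spread between replicate cultures. Promoter sequences were those of RefSeq (GRCm38.p6). Only the 250 bases before each start were used. R 4.3.3, edgeR 4.0.16 and DESeq2 1.42.0 gave alternative scaling factors, and the rest was computed in Python 3.11.15 with scipy 1.17.1 and pandas 2.3.3.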

Additional observations from a re-analysis of the deposited data

Results flagged for a closer look

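For Tcfap2a the change from serum/LIF to F/A pointed opposite ways in the 2 genotypes, at -0.27 (log2) for WT and 1.38 for the knockout, 1.65 apart. With 1 library per condition this difference was not tested. The counting interval of the WT change (0.491 to 1.20 times) holds 1, so a fall in WT was not detectable at this depth, and 16.9% of all kept genes had changes of opposite sign. Of the 8 kept regulators it was the only one to do so.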

How the results depend on the processing

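With 1 library per condition no replicate could be left out. No paired analysis was possible because each condition has 1 library. Each of the 8 kept regulators' log2 changes kept its sign in every alternative in which it was computed, apart from Gata3 in F/A and Tead4 in serum/LIF between the genotypes, which lay near 0. Of 312 calls of single regulators over the alternatives, 12 differed from those reported. Beside the stricter fold these were Dlx3 between the F/A libraries (lost with total-count scaling and with 5 added to every value), Gata2 in the WT transition (lost with 5 added) and Gata3 between the serum/LIF libraries (called on the fold alone, on 2 and 3 counts). With a fold of at least 3, the called regulators numbered 3 in the WT transition, 3 in the Cripto KO transition, 1 between the F/A libraries and 0 between the serum/LIF libraries, in place of 6, 5, 3 and 1, and the called genes 4200, 3843, 417 and 187 in place of 6584, 5841, 1084 and 516. A mean of at least 50 raw counts kept 6 of the regulators and removed Dlx3 and Esx1, whose calls were therefore not checked by it. It left 630 genes and 2 regulators called between the F/A libraries, and 219 genes and 0 regulators between the serum/LIF libraries. With the fold alone, 2 regulators and 864 genes were called between the serum/LIF libraries. Of the lists, 1 differentiated trophoblast gene, Cited1, was gained between the F/A libraries with TMM and DESeq2 factors, and 7 of 9 BMP targets were called higher under each alternative run except the 3-fold threshold, where 3 were. Subtracting a running median over transcript length was an alternative added after seeing the data. It left 0 surface ectoderm genes and 1 haemato-endothelial gene lower. It left 3 of 9 lateral mesoderm genes, 4 of 6 neural crest genes and 1 of 8 primitive endoderm genes higher, and moved Ets2 in the WT transition to 1.73. Total-count scaling likewise left 3 of 9 lateral mesoderm genes higher. The depth of these libraries limits Elf5, Gcm1, Esx1 and, in serum/LIF, Gata3 and Dlx3, whose counts were 37 or fewer.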
